A study of Homo sapiens
Mus musculus with 3 samples.

Results

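Chchd10 (ENSMUSG00000049422), Mrps24 (ENSMUSG00000020477) and Cox5a (ENSMUSG00000000088) are 3 mouse genes, of 27998 mouse and 60736 mouse and human gene rows in the deposited tables. They were chosen from earlier results of these data, because their reads in mouse wells were far lower in the library of a modified protocol (3'DE-UMI, here called the UMI library) than in both libraries of the standard protocol (3'DE). The differences between the protocols are therefore given as a description, without a test. The files hold only identifiers, and the names of the 3 genes are those given with the choice.

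The genes are encoded in the nucleus and their proteins act in mitochondria. Cox5a encodes a subunit of cytochrome c oxidase, the enzyme complex of the inner membrane that passes electrons to oxygen. Mrps24 encodes a protein of the small subunit of the mitochondrial ribosome, which translates the messages of the mitochondrial genome, among them the catalytic core subunits of cytochrome c oxidase. Chchd10 encodes a small protein of the space between the mitochondrial membranes that is known for its link to cristae structure and to inherited neuromuscular disease. Proliferating lymphoid lines make mitochondria in every division, so such genes are commonly transcribed in them.

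Each library held an equal mixture of 4 lymphoid lines, namely human Jurkat (T-cell leukemia) and TALL-104 (cytotoxic T-cell leukemia) and mouse EL4 (T-cell lymphoma) and IVA12 (B-cell hybridoma), caught one cell to a nanowell on the ICELL8 cx system. No line was treated. The 3'DE group had 2 libraries, in which cDNA was amplified while the barcoding primers were still present, so that its reads were counted without molecular identifiers. The 3'DE-UMI group had 1 library, in which cDNA was taken off the chip after reverse transcription, cleaned on a column, digested with exonuclease and then amplified, so that unique molecular identifiers (UMIs) could be counted. Per the study's sample table, 3'DE library 1 came from another preparation of the mixture than 3'DE library 2 and the UMI library, which shared one.

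The read tables summed to between 35581264 and 109702878 reads per library. Of the wells, 1293 to 1635 per library passed the minimum of 1000 reads and 200 genes, and 700 to 922 of them were mouse wells, with under 10% of reads from human genes. Mouse wells fell into 2 clusters, built on a set of genes that did not hold the 3 genes described here. Mouse cluster 1 had 478 and 497 wells in 3'DE libraries 1 and 2 and 468 wells in the UMI library. Mouse cluster 2 had 444, 276 and 232. Line markers could not be matched to identifiers, so the clusters carry numbers and no line is assigned to either, and the labelled lines could not be checked. The libraries shared 469 to 539 well barcodes between pairs, so a barcode does not name one well across libraries. Levels are given as CPM (counts per 1000000), the gene's reads summed over the wells of a cluster and scaled to the reads of all mouse genes in those wells. Reads are amplified copies, so every interval below covers counting error only, and wells of one library are not replicates of a protocol.

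In mouse cluster 1, Chchd10 stood at 338 CPM in 3'DE library 1, 350 CPM in 3'DE library 2 and 4.75 CPM in the UMI library. The 3'DE libraries lay within a narrow range, and the 3'DE-UMI level was 71.0 to 73.7 times lower than either of them. It rested on 86 reads among 18088898 mouse reads. In mouse cluster 2, Chchd10 was measured at 99.95, 138 and 6.96 CPM in the same order. The gap was smaller there, at 14.4 to 19.9 times, and the 3'DE-UMI level rested on 71 reads. A single well held 22.0% of the Chchd10 reads of cluster 2 in 3'DE library 2, and without that well the level was 110 CPM. In the UMI library the well with most Chchd10 reads held 18.6% of them in cluster 1 and 21.1% in cluster 2.

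Mrps24 stood at 532, 394 and 9.73 CPM in mouse cluster 1, again with the UMI library last. Its 3'DE-UMI level was 40.5 to 54.7 times lower than the 3'DE levels. In mouse cluster 2 it was measured at 611, 420 and 73.3 CPM, a gap of 5.73 to 8.33 times. The mitochondrial ribosomal gene thus had similar 3'DE levels in both clusters, while its 3'DE-UMI levels in the clusters were apart, with 176 reads in cluster 1 and 747 in cluster 2. Whether the gap differed between the clusters was not tested, since the genes were first picked for their reads in these same wells.

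Cox5a had the mildest gap of the set. The oxidase subunit gene was measured at 575, 664 and 88.2 CPM in mouse cluster 1 and at 385, 390 and 116 CPM in mouse cluster 2. The 3'DE-UMI level was 6.52 to 7.52 times lower in cluster 1 and 3.32 to 3.36 times lower in cluster 2, with 1596 and 1182 reads behind it. For each of the 3 genes and in both clusters, the UMI library lay below both 3'DE libraries, which is what the choice of the genes fixed. Within one cell preparation, the UMI library minus 3'DE library 2 was -5.93 for Chchd10, -5.20 for Mrps24 and -2.90 for Cox5a in cluster 1 on the log2(CPM + 1) scale, and -4.13, -2.50 and -1.74 in cluster 2.

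**Figure D1:**
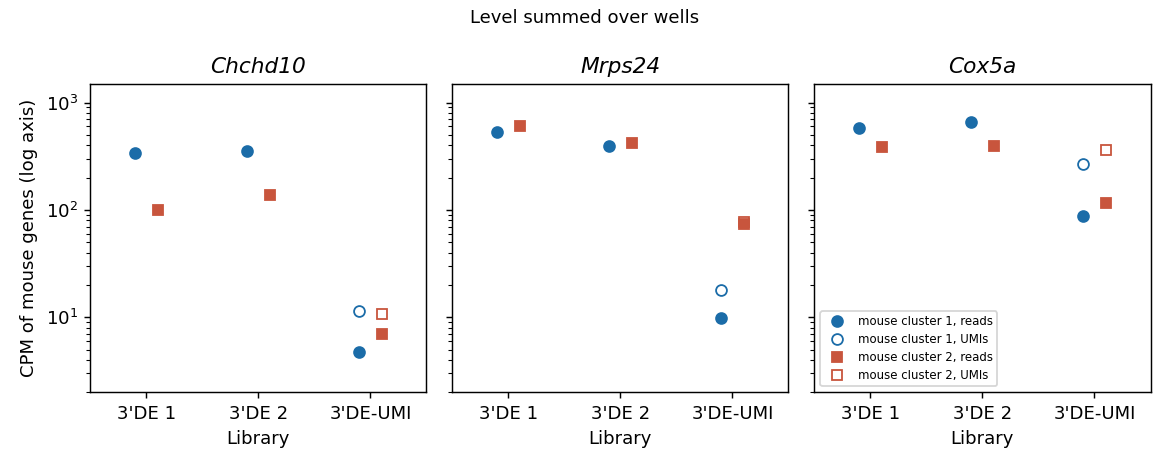
Level of each gene in each library, as CPM of mouse genes summed over wells on a log axis. Filled symbols are reads and open symbols UMIs (UMI library only), circles are mouse cluster 1 and squares mouse cluster 2. Filled symbols of the UMI library lie below those of both 3'DE libraries in all 3 panels, from 4.75 CPM for Chchd10 to 116 CPM for Cox5a, and the open symbols of Cox5a lie higher, at 269 and 359.

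The share of wells with a read describes the same reads by which the genes were chosen and is not a separate check. A Chchd10 read was found in 90.6% of cluster 1 wells of 3'DE library 1 (exact 95% interval 87.6 to 93.1), in 73.6% of 3'DE library 2 (69.5 to 77.5) and in 4.06% of the UMI library (2.46 to 6.27). In cluster 2 the shares were 46.8%, 42.8% and 4.31%. Mrps24 was detected in 93.3%, 78.3% and 6.84% of cluster 1 wells and in 93.0%, 76.1% and 26.3% of cluster 2 wells. Cox5a was detected in 97.9%, 84.1% and 38.5% of cluster 1 wells and in 92.8%, 62.3% and 48.3% of cluster 2 wells. Detection of Chchd10 and Mrps24 in the UMI library was thus a matter of 10 to 61 wells per gene and cluster.

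Wells of the libraries differed in depth, with a median of 20315.5 to 36889 mouse reads per cluster and library. Wells were therefore thinned to 5000 mouse reads each, which kept 460, 478 and 455 wells of cluster 1 and 426, 234 and 225 wells of cluster 2. At that equal number of reads, which is not an equal number of molecules, Chchd10 was found in 68.0%, 52.7% and 0.88% of cluster 1 wells and in 26.8%, 25.6% and 2.22% of cluster 2 wells. Mrps24 was found in 80.2%, 58.8% and 2.86% of cluster 1 wells and in 82.9%, 66.7% and 15.1% of cluster 2 wells. For Cox5a the shares were 89.6%, 75.9% and 22.0% in cluster 1 and 73.9%, 54.7% and 28.0% in cluster 2. The order of the libraries was the same with and without thinning, 3'DE library 1 first and the UMI library last, and for Chchd10 in cluster 2 the intervals of the 3'DE libraries overlapped.

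Most genes were found in fewer wells of the UMI library at this number of reads. A thinned cluster 1 well held a median of 1594.5, 1440.5 and 935 mouse genes and a thinned cluster 2 well 1596.5, 1468 and 1126. Of the 1981 mouse genes with at least 50 CPM in each 3'DE library and both clusters, 87.6% in cluster 1 and 84.5% in cluster 2 had a lower share of wells in the UMI library than in both 3'DE libraries. The median gene of these was found in 44.3%, 36.2% and 20.7% of cluster 1 wells and in 44.8%, 36.8% and 26.2% of cluster 2 wells. A lower share was therefore common to most genes. In cluster 2 of the UMI library, Cox5a was found in 28.0% of wells, beside 26.2% for the median gene. The shares come from the reads by which the 3 genes were chosen, so their ranks are a description. By the ratio of the share in the UMI library to the lower 3'DE share, Chchd10 was the lowest of the 1981 in both clusters, Mrps24 was at ranks 4 and 8 and Cox5a at ranks 173 and 330.

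**Figure D2:**
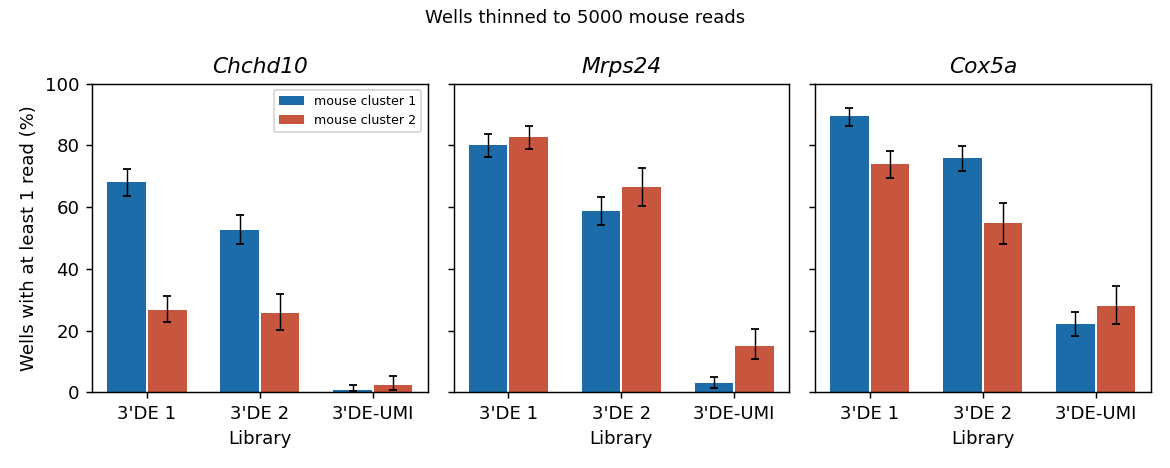
Share of mouse wells with at least 1 read of each gene, after every well was thinned to 5000 mouse reads. Bars are the share in percent and whiskers the exact 95% binomial interval, which covers counting error only. The 3'DE-UMI bars reach from 0.88% for Chchd10 in cluster 1 to 28.0% for Cox5a in cluster 2, and each lies below both 3'DE bars of its cluster.

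Levels in wells with at least 1 read of a gene come from the same reads by which the genes were chosen. In such wells of cluster 1, the median level of Chchd10 was 299, 332 and 43.9 CPM, with 3'DE library 1 first and the UMI library last, that of Mrps24 was 490, 306 and 72.7 CPM and that of Cox5a was 536, 624 and 137 CPM. In cluster 2 it was 145, 153 and 103 CPM for Chchd10, 572, 417 and 184 CPM for Mrps24 and 373, 363 and 134 CPM for Cox5a. For each gene and cluster the UMI library had the lowest of the medians, with Chchd10 in cluster 2 the closest to the others. A well enters these medians only once a read of the gene was seen in it, and in the UMI library those of Chchd10 rest on 19 and 10 wells.

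The 3 genes were seldom seen together in the UMI library, which the low share of wells with Chchd10 given above already limited. In cluster 1, all 3 were detected in 415 of 478 wells of 3'DE library 1, in 295 of 497 wells of 3'DE library 2 and in 1 of 468 wells of the UMI library. None of them was detected in 5, 25 and 258 of these wells. In cluster 2, all 3 were detected in 192 of 444, 88 of 276 and 3 of 232 wells, and none in 11, 44 and 93 wells. The wells of the UMI library in which exactly 1 of the genes was read numbered 190 in cluster 1 and 98 in cluster 2.

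**Figure D3:**
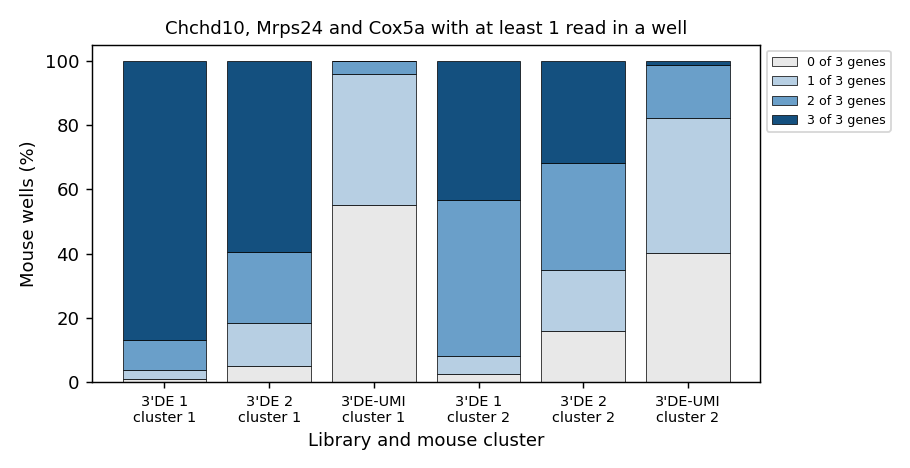
Mouse wells of each library and cluster by how many of Chchd10, Mrps24 and Cox5a had at least 1 read, in percent of wells, with darker shading for more genes. The darkest part covers 86.8% of cluster 1 wells in 3'DE library 1 and 0.214% in the UMI library.

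To place the genes among others, a log2 ratio was computed for the same 1981 mouse genes, which were not matched to them in level. It compared the UMI library with the lower of both 3'DE libraries, on CPM + 1. Across these genes the median ratio was -0.14 in cluster 1 (5th to 95th percentile -1.98 to 1.37) and 0.03 in cluster 2 (-1.28 to 1.13). The 3 genes were chosen by this same contrast, and the 1981 genes were filtered on their 3'DE levels only. Low ranks of the 3 genes were thus fixed by the choice and are a description. Chchd10 was at -5.88 and -3.66, the lowest of the 1981 genes in each cluster. Mrps24 was at -5.20 and -2.50, which was rank 2 in cluster 1 and rank 6 in cluster 2 from the lowest. Cox5a was at -2.69 and -1.72, at ranks 20 and 40. Between the 3'DE libraries, the log2 ratios of library 2 to library 1 were between -0.54 and 0.47 for the 3 genes. Over the 1981 genes the 5th to 95th percentile was -0.52 to 0.63 in cluster 1 and -0.59 to 0.74 in cluster 2. Mrps24, at -0.43 in cluster 1 and -0.54 in cluster 2, lay near the low end. In edgeR fits over all genes, 11.9% of the 11792 genes tested in cluster 1 differed between the protocols and 7.49% were lower in the UMI library, and in cluster 2 it was 2.37% and 1.62% of 11626 genes. With UMI counts in place of the reads of the UMI library, 73.4% of the 305 genes called in cluster 2 were higher in it, where 31.9% of the 276 called with reads were. No call is read for the 3 genes, which were chosen by this contrast. The 3'DE-UMI group held 1 library, so its spread was not measured and the calls cannot tell the protocol from that library. In cluster 1, 92 of the 1981 genes (4.64%) lay below -2, Cox5a among them. In cluster 2 it was 19 genes (0.96%), and Cox5a was not among them. Chchd10 stood at the end of the distribution in both clusters, in the contrast by which it was chosen.

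The other genes with the most similar pattern were ranked by the larger of their ratios in the clusters, a measure over 3 libraries and 2 clusters. By it Chchd10 was rank 1, Mrps24 rank 6 and Cox5a rank 35, in the contrast by which they were chosen. Rank 2 was held by ENSMUSG00000062619, which stood at 119, 94.2 and 7.85 CPM in cluster 1 and at 364, 272 and 29.0 CPM in cluster 2. Rank 3 was held by ENSMUSG00000020483, at 98.9, 139 and 11.2 CPM in cluster 1 and at 406, 567 and 47.7 CPM in cluster 2. The tables did not pair these identifiers with names. Both had higher 3'DE levels in cluster 2 than in cluster 1, the opposite of Chchd10. The genes at ranks 4 and 5 had higher 3'DE levels in cluster 1, as Chchd10 did, so the similar genes shared no order of the clusters.

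**Figure D4:**
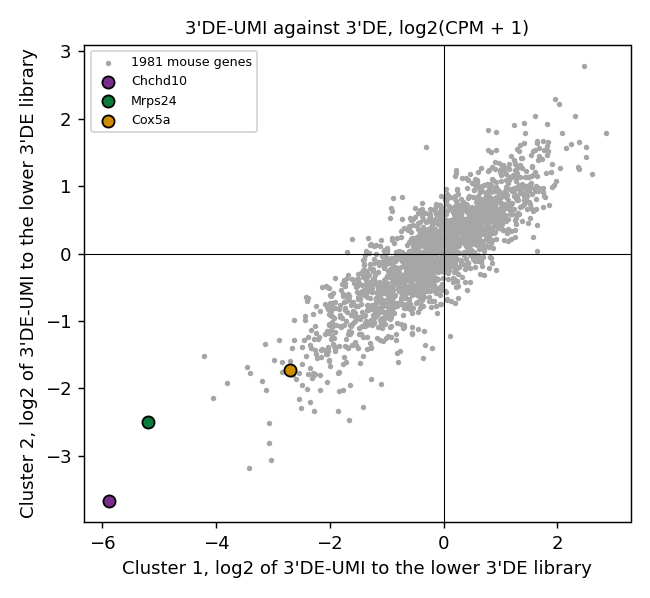
Log2 ratio of the UMI library to the lower 3'DE library, on CPM + 1, in mouse cluster 1 (horizontal) and mouse cluster 2 (vertical) for 1981 mouse genes, with the 3 genes in colour. Chchd10 lies at the lower left end at -5.88 and -3.66, Mrps24 is next along the horizontal axis, and Cox5a lies at the edge of the main cloud.

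A second readout of the UMI library is its UMI table, made with another pipeline than the reads. Chchd10 had 18 UMIs in cluster 1 (exact Poisson 95% interval 10.7 to 28.4) and 10 in cluster 2 (4.80 to 18.4). Mrps24 had 28 and 72 UMIs, and Cox5a 420 and 335. As CPM of the UMIs of mouse genes, Chchd10 stood at 11.5 and 10.7 in clusters 1 and 2, and Mrps24 at 17.9 and 77.2. These values are low beside the 3'DE read levels of the same genes. Cox5a stood at 269 UMI CPM in cluster 1 and at 359 in cluster 2, beside 575 and 664 read CPM in the 3'DE libraries of cluster 1 and 385 and 390 in those of cluster 2. Reads and UMIs are different units from different pipelines, so these values are set side by side and not tested. For Cox5a the UMI level minus the mean 3'DE read level was -1.20 in cluster 1 and -0.11 in cluster 2 on the log2(CPM + 1) scale, where reads gave -2.79 and -1.73. Chchd10 and Mrps24 were scarce in both tables.

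Reads per UMI were low for these genes within the UMI library. Among genes with at least 20 UMIs the median was 13.4 reads per UMI over 6170 genes of cluster 1 (5th to 95th percentile 5.14 to 18.5) and 12.8 over 5354 genes of cluster 2. Cox5a had 3.80 reads per UMI in cluster 1 and 3.53 in cluster 2, and 3.27% and 3.23% of genes had fewer. Chchd10 had 4.78 and 7.10 reads per UMI, from under 20 UMIs, and 4.49% and 9.60% of genes had fewer. Mrps24 had 6.29 and 10.4, with 6.84% and 25.2% of genes below it. All 3 genes had fewer reads per UMI than the median gene in both clusters. The reads in this ratio are those by which the genes were chosen, so it is a description.

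In some wells the tables differed on whether Cox5a was there at all. Of the 233 cluster 1 wells with a Cox5a UMI, 55 (23.6%) had no Cox5a read in the read table, and 2 wells had a read without a UMI. In cluster 2 it was 30 of 142 wells (21.1%), with 0 wells the other way. Across genes with at least 20 UMIs the median share of UMI wells without a read was 0% in both clusters and the 95th percentile was 14.3% and 15.2%. For Cox5a, the read table thus listed no reads in wells where the other pipeline counted molecules of the same library. For Chchd10 this happened in 1 of 17 wells of cluster 1 and 0 of 10 of cluster 2, and for Mrps24 in 0 of 28 and 0 of 54.

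**Figure D5:**
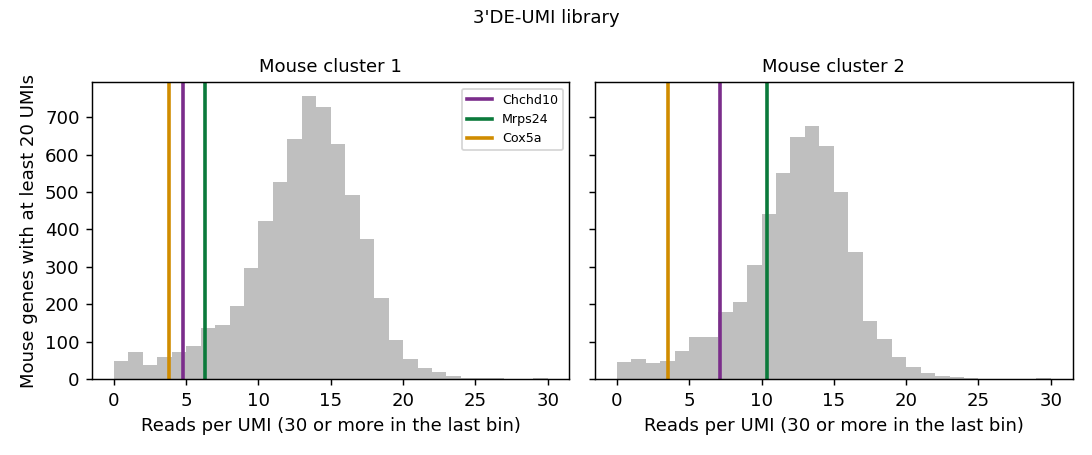
Reads per UMI in the UMI library, as the number of mouse genes with at least 20 UMIs per bin, in mouse cluster 1 (left) and mouse cluster 2 (right), with values of 30 or more in the last bin. Coloured lines mark the 3 genes. Cox5a lies at 3.80 and 3.53, far left of the medians of 13.4 and 12.8, and Mrps24 lies nearest to the median, at 10.4 in cluster 2.

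The rows next to each gene, in the order of the table, were read as well. In cluster 1, Chchd10, Mrps24 and Cox5a were lower by 339, 454 and 531 CPM in the UMI library than in the mean of the 3'DE libraries. Of the 4 rows on each side, the largest gain was 78.0, 0.58 and 34.2 CPM. In cluster 2 the genes were lower by 112, 442 and 271 CPM and the largest gain of a next row was 20.1, 30.4 and 33.96 CPM. No row of a human gene gained more than 19.8 CPM in mouse wells of cluster 1 or 21.7 CPM in those of cluster 2. Where else reads of these genes could be listed was not tested.

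Human wells hold a few mouse reads. These wells were not used in the choice of the genes, but the reads come from the same libraries, so they are not an independent check. Chchd10 made up 166 and 310 CPM of the mouse reads in human wells of 3'DE libraries 1 and 2, with reads in 3.38% and 13.0% of wells. In the UMI library it had 0 reads in 557 human wells, which, taken as a limit of 3 counts, allows a share of wells of up to 0.539% and a level of up to 14.4 CPM (the exact 95% upper limit of the share was 0.660%). The median human well held 36, 1010 and 206 mouse reads in the 3 libraries, so shares of wells are not comparable between them. Mrps24 was at 504, 496 and 33.5 CPM in human wells and Cox5a at 278, 743 and 177 CPM, the last from 7 and 37 reads. The order of the libraries in these wells was that of the mouse wells, with the UMI library lowest for each gene. The shares of mouse wells of the UMI library with a read of Chchd10 (4.06% and 4.31%) lay above the 0 of 557 human wells, at a much higher depth in mouse reads.

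Mouse clusters 1 and 2 were compared with library as a block, a contrast that the choice of the genes did not use. Chchd10 was higher in cluster 1 by 1.20 on the log2 scale (SE 0.36, edgeR quasi-likelihood adjusted p = 0.0270), and it was higher in cluster 1 in both 3'DE libraries and not in the UMI library. Cox5a was at 0.56 (SE 0.23, edgeR adjusted p = 0.0857) and Mrps24 at -0.74 (SE 0.47, edgeR adjusted p = 0.238). So 1 of the 3 genes passed the threshold of 0.05, where 38.9% of the 12096 mouse genes tested did and 19.8% were higher in cluster 1. Without the UMI library, Chchd10 was higher in cluster 1 by 1.76 (SE 0.23, edgeR adjusted p = 2.65e-13) and Cox5a by 0.89 (SE 0.23, edgeR adjusted p = 0.000391), and Mrps24 turned to 0.073 (SE 0.23, edgeR adjusted p = 0.827). There 44.2% of the 11489 genes tested passed and 22.9% were higher in cluster 1, in a fit on 2 libraries only. Without 3'DE library 1, Chchd10 no longer passed (0.77, edgeR adjusted p = 0.206), nor without 3'DE library 2 (0.93, edgeR adjusted p = 0.138). The 3'DE and 3'DE-UMI libraries thus gave different orders of the mouse clusters for Chchd10 and Cox5a, while Mrps24 had the higher CPM in cluster 2 in each library. For Chchd10 the order in the UMI library rests on 86 reads in cluster 1 and 71 in cluster 2. In the 3'DE libraries, Chchd10 and Cox5a were higher in cluster 1, while in reads of the UMI library each of the 3 genes had the higher CPM in cluster 2. In UMI CPM that held for Mrps24 and Cox5a but not for Chchd10. With 1 such library this order has no replicate check.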

How the data were processed

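Read counts per gene and well barcode were deposited for all 3 libraries, and UMI counts for the 3'DE-UMI library. Per the study's methods, the authors made the read counts with mappa (STAR 2.7.0b) and the UMI counts with the Drop-seq tools (STAR 2.4.2a), on a combined reference of the human build hg19 and the mouse build mm10. They downsampled reads before alignment. Whether the deposited counts come from those reads is not stated. No column of the tables was left unassigned.

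Wells with at least 1000 reads and 200 genes were kept, and wells with 10% or more reads of the other species were left out as mixed, which was the treatment of doublets, so pairs of cells of 1 species remain. Mouse wells were clustered (scanpy 1.11.5, Leiden resolution 0.1, 1000 variable genes, 20 components) on a seeded set of genes without the 3 described genes. A clustering on the remaining genes, which served to test the genes of the first set, put 2382 of 2395 wells in the same cluster. Reads were summed per library and cluster. Clusters were compared with edgeR 4.0.16 (R 4.3.3, TMM factors, filterByExpr, quasi-likelihood F-test, two-sided, library as a block, Benjamini-Hochberg over all mouse genes tested, threshold 0.05) on 6 sums. All 3 genes passed the filter on low counts. DESeq2 1.42.0 was an alternative. On simulated counts the cluster test recovered 96% of genes given a log2 change of 2 or 4, with 7 false calls among 12096 genes. The simulation gave each library the same levels, so differences between libraries were not covered. P-values measure how the cluster difference varied between libraries, with the lone UMI library among them. Nothing says that the libraries came from separate cultures beyond the 2 cell preparations. The pseudocount was 1 CPM. For shares of wells at equal read numbers, each well was thinned at random to 5000 mouse reads, and shallower wells were left out.

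Chchd10, Mrps24 and Cox5a and the lists were chosen with earlier results of these data known. The genes named are these 3 and, by rule, those among 1981 well measured genes with the lowest larger log2 ratio of the 3'DE-UMI library to the lower 3'DE library over both clusters, of which 2 identifiers are printed. Symbols of the mitochondrial gene lists, of the line markers and of the human counterparts could not be matched to identifiers in the tables used here. The lists, the human comparison, gene positions and sequences were not analysed here.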

Additional observations from a re-analysis of the deposited data

How the results depend on the processing

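The difference between the UMI library and the mean of the 3'DE libraries stayed negative for each of the 3 genes in both clusters under each of the 10 alternatives run. In log2(CPM + 1) it was -5.91 for Chchd10, -5.42 for Mrps24 and -2.79 for Cox5a in cluster 1, and -3.90, -2.77 and -1.73 in cluster 2. With UMI counts for the UMI library it was -4.78, -4.60 and -1.20 in cluster 1, and for Chchd10 -3.34 and for Cox5a -0.11 in cluster 2. As an edgeR fit with TMM factors it was -6.31 for Chchd10 and -2.94 for Cox5a in cluster 1, and -4.30 and -1.97 in cluster 2. As a DESeq2 fit it was -6.33, -5.73 and -2.96 in cluster 1, and for Chchd10 -4.33 and for Cox5a -2.002 in cluster 2. As a mean over wells it was -6.05 for Chchd10 and -4.02 for Mrps24 in cluster 1, and -2.80 for Chchd10 and -1.89 for Cox5a in cluster 2. Without the well with most reads in each library, an alternative chosen after seeing the data, it was -6.13 for Chchd10 in cluster 1 and -1.76 for Cox5a in cluster 2, and with equal numbers of wells it was -1.75 for the latter. The SD between the 3'DE libraries, by which a move was judged, was as low as 0.012 for Cox5a in cluster 2. The remaining 39 of these values moved by less than that spread.

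Across all genes, edgeR called 1398 of 11792 genes (11.9%) between the protocols in cluster 1, and 910 with UMI counts. In cluster 2, 31.9% of the genes that edgeR called were higher in the UMI library, beside 10.6% with DESeq2 and 73.4% with UMI counts. These are separate lists of genes, and whether the same gene changed direction was not tested. The calls between the protocols rest on 1 UMI library, whose spread was not measured. Between the clusters edgeR called 4709 genes, and 3044 to 5076 when 1 library was left out. Labels gave the groups no pairing of replicates, and the block in the cluster comparison is the library itself. Without the replicate block 2974 genes passed, and none of the 3 genes did (Chchd10 1.71, edgeR adjusted p = 0.354, Cox5a 0.78, edgeR adjusted p = 0.473, Mrps24 -0.05, edgeR adjusted p = 0.981). With 1 library left out, the fitted cluster difference of Mrps24 ranged from -1.30 to 0.073. The positive value came without the UMI library and was smaller than its SE of 0.23, while the CPM was higher in cluster 2 in both 3'DE libraries. The cluster difference of Mrps24 passed the threshold with no filter on low counts (-0.73, edgeR adjusted p = 0.0145). That of Cox5a passed with no filter, with UMI counts (0.61, edgeR adjusted p = 0.0301, chosen after seeing the data) and without the UMI library. Over its alternatives, the edgeR or DESeq2 adjusted p of Chchd10 ranged from 2.65e-13 to 0.354. The cause of these changes was not tested.

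Not run were the comparison in human wells and CPM without the mitochondrially encoded genes, since both need names for identifiers. In cluster 1 of the UMI library, Chchd10 and Mrps24 rest on 18 and 28 UMIs, which limits the precision of their levels there.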

Other observations

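Mixed wells, which held reads of both species and entered no comparison, had Chchd10 at 126, 215 and 18.8 CPM of their mouse reads in the 3'DE libraries and the UMI library, in that order. Mrps24 stood at 828, 442 and 2.69 CPM there and Cox5a at 287, 456 and 51.1 CPM. The 3'DE-UMI values rest on 7, 1 and 19 reads in 36 wells.

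Of all UMIs of the 3 genes in the UMI table, few lay outside the barcodes of the read table's mouse wells. They numbered 2 of 30 for Chchd10, 3 of 103 for Mrps24 and 38 of 793 for Cox5a, spread over 2300 other barcodes.

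Well barcodes are reused between chips, so the mouse wells of the UMI library with a read of a gene were also looked up in the 3'DE libraries. Of the 12 Chchd10 wells whose barcode was among the wells of 3'DE library 1, 6 had a Chchd10 read there, beside 127 of the 239 such barcodes of all mouse wells of the UMI library. For Mrps24 it was 23 of 34 beside 176 of 239, and for Cox5a 87 of 109 beside 186 of 239.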
